A study of Mus musculus with 8 samples.

Results

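Peaks of 2 histone acetylation marks were examined at 10 mouse genes that handle signals from gut microbes. They comprised the receptors Ffar2, Ffar3, Ffar4 and Gpr35, the transporter Slc5a8, the aryl hydrocarbon receptor gene Ahr, its repressor Ahrr, and the AhR target genes Cyp1a1, Cyp1b1 and Tiparp. They were picked by name, not by a measured value, out of 21887 protein-coding genes in RefSeq on chromosomes 1 to 19, X and Y (GRCm38.p6). Earlier results of these data were known when they were picked. A locus was the gene body plus 50 kb on each side, and each peak there was placed at a gene end (within 1 kb), in the body or in the flanks.

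The study used CUT&Tag, in which an antibody tethers a transposase to chromatin so that fragments carrying a mark are released and sequenced. It profiled H3K27ac and H3K9ac, acetylation of histone H3 found at active enhancers and promoters, in small intestinal crypt epithelial cells of male C57BL/6J mice aged 9 weeks. The groups were Fed (-Tetra), Fast (-Tetra), Fed (+Tetra) and Fast (+Tetra): Fast mice had gone without food for 24 h, +Tetra mice had received tetracycline for 21 days, and -Tetra mice, called SPF in the library names, had received none. All mice were of 1 strain with no engineered allele named in the labels, and no measure of the bacteria left after tetracycline was used here. Each group had 1 sample per mark, and each sample had 2 peak lists, called list 1 and list 2, which gave 8 lists per mark. The labels do not say whether both lists of a sample came from different mice, so every p-value below measures only the spread between lists, which may be technical.

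Gut bacteria ferment fibre into short-chain fatty acids and turn tryptophan into indoles. FFAR2 and FFAR3 are G protein-coupled receptors for short-chain fatty acids, FFAR4 senses long-chain fatty acids, GPR35 responds to tryptophan metabolites such as kynurenic acid, and SLC5A8 carries short-chain fatty acids into epithelial cells with sodium. AhR is a transcription factor that binds indoles and other aromatic ligands, enters the nucleus, pairs with ARNT and binds DNA at sites with the core GCGTG. Its classical targets encode the enzymes CYP1A1 and CYP1B1, and the ADP-ribosyltransferase TIPARP and the repressor AHRR, both of which restrain AhR.

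The H3K27ac lists held 32392 to 68545 peaks and the H3K9ac lists 17249 to 99050. The lists are described as downsampled and give no read totals, so the depth is unknown. Covered length over the genome averaged 0.29 log2 units higher in Fast than in Fed H3K27ac lists and 0.45 higher in H3K9ac lists, and for tetracycline the shifts were -0.15 and 0.12. Peaks exactly 200 bp wide made up 31.2% of the H3K9ac Fast (+Tetra) list 2 and 17.2% and 20.3% of list 1 of Fast (-Tetra) and Fast (+Tetra). All 6 epithelial marker genes chosen for the tissue (Epcam, Cdh1, Vil1, Krt8, Krt19, Cdx1) had a peak at a gene end in every list of both marks.

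The sequences just before the start sites of Ahrr and the AhR targets are shown first because each holds a match to the AhR core motif. AhR binding was not measured here, so a match does not show a bound site. RefSeq start sites (GRCm38.p6) were given for 9 of the 10 genes, all but Ahr. The 250 bases before each start site were searched on both strands for GCGTG, whose reverse complement is CACGC. The lines give these windows for Cyp1a1 (chr9:57697363-57697612, plus strand), Cyp1b1 (chr17:79715062-79715311, minus strand), Ahrr (chr13:74292332-74292581, minus strand) and Tiparp (chr3:65528197-65528446, plus strand), read 5′ to 3′ in the direction of the gene, with each match in capitals.

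Cyp1a1: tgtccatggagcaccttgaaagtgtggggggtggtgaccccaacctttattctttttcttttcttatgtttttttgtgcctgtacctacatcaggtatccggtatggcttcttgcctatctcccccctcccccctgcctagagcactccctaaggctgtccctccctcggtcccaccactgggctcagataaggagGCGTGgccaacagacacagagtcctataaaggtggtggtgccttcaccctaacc

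Cyp1b1: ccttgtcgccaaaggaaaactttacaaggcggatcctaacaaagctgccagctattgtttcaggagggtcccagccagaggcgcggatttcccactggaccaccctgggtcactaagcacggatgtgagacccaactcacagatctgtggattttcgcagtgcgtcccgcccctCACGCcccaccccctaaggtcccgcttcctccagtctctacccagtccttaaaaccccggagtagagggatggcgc

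Ahrr: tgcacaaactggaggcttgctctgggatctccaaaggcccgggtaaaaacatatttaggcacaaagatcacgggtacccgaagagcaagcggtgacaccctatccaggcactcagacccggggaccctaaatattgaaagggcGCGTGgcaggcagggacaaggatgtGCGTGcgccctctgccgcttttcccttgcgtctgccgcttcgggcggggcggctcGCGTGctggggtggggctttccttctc

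Tiparp: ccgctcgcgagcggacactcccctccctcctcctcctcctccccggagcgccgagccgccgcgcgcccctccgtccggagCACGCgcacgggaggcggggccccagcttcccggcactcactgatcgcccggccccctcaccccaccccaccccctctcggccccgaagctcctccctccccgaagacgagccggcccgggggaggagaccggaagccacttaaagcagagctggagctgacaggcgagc

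A match was present in 33.8% of 21263 such windows of protein-coding genes, and 3 or more matches in 3.67%. Ahrr had 3 matches, beginning 107, 82 and 27 bases before its start. Cyp1a1 had 1 match at 54 bases, Cyp1b1 1 at 76 and Tiparp 1 at 170 bases before the start. Slc5a8 had 1 match, as did the outermost of the 4 Ffar2 start sites, and the windows of Ffar3, Ffar4 and Gpr35 held none. The base composition of the printed windows differed widely. The Tiparp window held 28 CpG dinucleotides at 75.2% G+C, against a median of 10 CpG and 55.6% over all windows. Cyp1a1 held 3 CpG at 53.6% G+C, Cyp1b1 12 and Ahrr 17. H3K27ac peaks lay over the Tiparp window in all 8 lists and H3K9ac peaks in 7. Over the Cyp1a1 window they lay in 4 and 2 lists, over the Ahrr window in 1 and 2, and over the Cyp1b1 window in none.

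At the ends of the 10 genes, Ahr and Tiparp were marked in nearly every list, Slc5a8 in 8 of the 16 lists, and the other 7 genes in 0 to 4. Ahr carried both marks at a gene end in all 16 lists, and Tiparp carried H3K27ac in all 8 and H3K9ac in 7 of 8. In comparison, 17.6% of all protein-coding genes were marked in all 16 lists. For H3K27ac alone, 2 of the 10 genes (Ahr and Tiparp) were marked in all 8 lists, against 33.6% of all genes. With H3K27ac 3 genes (Ffar2, Ffar3 and Gpr35) were marked in none, against 39.4%. At Gpr35 a region with both marks in all 8 lists began just outside the 1 kb window. For H3K9ac, 1 gene (Ahr) was marked in all 8 lists, against 21.1%, and 1 (Ffar3) in none, against 25.2%. Counted at curated start sites, which lie inside the records of Gpr35 and Cyp1a1, H3K27ac marked 2 of 9 genes (Cyp1a1 and Tiparp) in all 8 lists and 1 (Ffar3) in none, beside 34.5% and 40.8% of 17492 genes. H3K9ac marked 0 of 9 in all 8 lists and 1 (Ffar3) in none, beside 21.5% and 30.0%. Over all lists, 28 H3K27ac peaks lay at gene ends, 92 in the bodies and 319 in the flanks, with 35, 89 and 271 for H3K9ac. A peak in the stretch that the Ffar2 and Ffar3 loci share is counted for both.

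**Figure D1:**
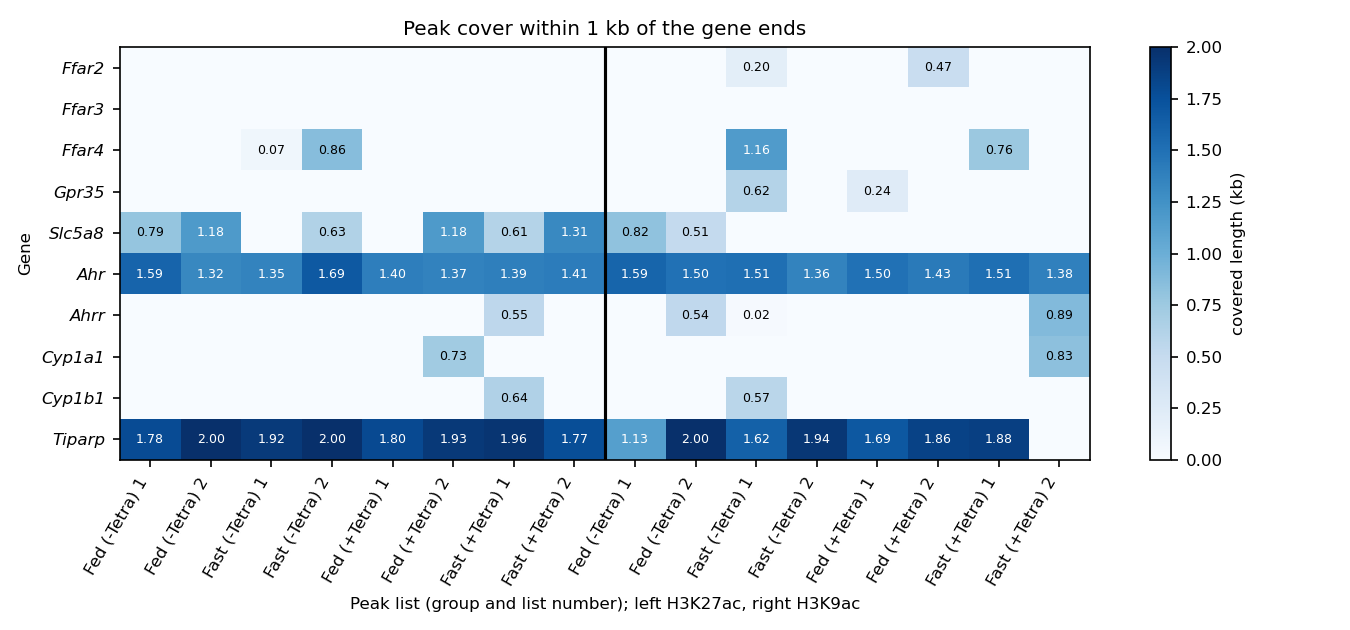
Length covered by peaks (kb) within 1 kb of the ends of each gene (rows) in each of the 16 lists (columns; left of the line H3K27ac, right H3K9ac); blank cells are 0. Ahr and Tiparp are filled nearly throughout, the only blank being Tiparp in the H3K9ac Fast (+Tetra) list 2, and Slc5a8 is filled in 6 H3K27ac lists.

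No gene of the 10 was marked at an end in all 4 lists of one tetracycline state and none of the other. Over all genes that pattern was found with H3K27ac in 0.00457% (+Tetra only) and 0.0959% (-Tetra only), and with H3K9ac in 0.0457% and 0.0411%. Nor was any marked in all 4 lists of one feeding state and none of the other. For feeding the shares over all genes were 0.0959% (Fast only) and 0.0137% (Fed only) with H3K27ac, and 0.0777% and 0.0411% with H3K9ac. Between 2 and 5 of the 10 genes were marked in an H3K27ac list, beside 42.9 to 50.7% of all genes. In an H3K9ac list between 2 and 7 of the 10 were marked, beside 41.1 to 53.2% of all genes. The mean number with H3K27ac was 0.25 higher with tetracycline and 0.75 higher in Fast than in Fed lists, with an SD of 1.06 between lists of a group. For H3K9ac the differences were -1 and 0.5 with an SD of 1.80. All 4 differences were smaller than the spread between lists. The same differences over all genes were not computed.

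Ffar2 and Ffar3, the short-chain fatty acid receptors, lie next to each other on chromosome 7 and are both read toward lower coordinates (Ffar2 chr7:30818031-30823775, Ffar3 chr7:30854330-30856178). Around them H3K27ac covered more sequence in every Fast list than in any Fed list. At the Ffar2 locus the Fed (-Tetra) lists 1 and 2 had 0.697 and 2.87 kb covered and the Fast (-Tetra) lists 6.01 and 8.02 kb. The Fed (+Tetra) lists had 2.17 and 2.73 kb and the Fast (+Tetra) lists 4.05 and 6.01 kb. The lowest Fast list was above the highest Fed list, and the order held in each tetracycline state. The mean was 6.02 ± 1.62 kb (SD, n = 4 lists) in Fast and 2.12 ± 0.993 kb in Fed lists, a difference of 3.91 kb or 2.85-fold.

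At the Ffar3 locus the Fed (-Tetra) lists had 0.318 and 2.33 kb, the Fast (-Tetra) lists 3.88 and 6.02 kb, the Fed (+Tetra) lists 1 and 1.82 kb and the Fast (+Tetra) lists 2.73 and 5.19 kb. Here too no Fed list reached a Fast list, with means of 4.46 ± 1.45 kb against 1.37 ± 0.888 kb (SD, n = 4 lists each), a difference of 3.09 kb or 3.26-fold. These are largely the same peaks: the loci share 69.4 kb (chr7:30804330-30873775), and that stretch held 4.19 of the 5.19 kb in the Fast (+Tetra) list 2 and all of the Ffar3 cover in the other lists. With flanks of 25 kb the Ffar3 difference was 1.12 kb and the groups overlapped (exact permutation p = 0.17), and with flanks of 100 kb it was 6.47 kb. For both genes the exact two-sided permutation p over 36 arrangements was 0.056, the smallest the design allows, and 0.58 after Benjamini-Hochberg adjustment over 20152 genes.

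The peaks behind this difference lay outside the gene ends. Neither Ffar2 nor Ffar3 had H3K27ac within 1 kb of a gene end in any list, and none of the H3K27ac cover lay within 1 kb of the ends of the neighbours Dmkn, Krtdap, Ffar1, Cd22 and Mag. A region 12.8 kb beyond the Ffar2 gene end (chr7:30803715-30805215) was called in every one of the 8 lists. The next, 5.08 kb beyond that end (chr7:30811250-30812955), was called in the 4 Fast lists and in list 2 of both Fed groups. There the covered length was 1353 and 1704 bp in the Fast (-Tetra) lists, 1541 and 1549 bp in the Fast (+Tetra) lists, 1353 bp in the Fed (-Tetra) list 2 and 866 bp in the Fed (+Tetra) list 2. It thus separated list 1 from list 2 among the Fed lists. Another region, at the far edge of the Ffar2 locus (chr7:30768844-30770734), lay inside the body of the neighbour Dmkn (chr7:30763756-30781066). It was called in the 4 Fast lists and both Fed (+Tetra) lists but in neither Fed (-Tetra) list. It covered 1640 and 1513 bp in the Fast (-Tetra), 733 and 1204 bp in the Fast (+Tetra) and 639 and 501 bp in the Fed (+Tetra) lists.

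Within the Ffar2 body, a region at its inner start sites (chr7:30819801-30820870) had H3K27ac only in lists without tetracycline. It covered 430 bp in the Fed (-Tetra) list 2, 787 and 1007 bp in the Fast (-Tetra) lists, and nothing in the Fed (-Tetra) list 1 or in any of the 4 +Tetra lists. The states therefore overlapped at 0. H3K9ac at the Ffar2 and Ffar3 loci was scattered, with 19 of 22 and 20 of 22 regions found in a single list. Ffar3 had no H3K9ac at its ends in any list, and Ffar2 had 200 bp in the Fast (-Tetra) list 1 and 467 bp in the Fed (+Tetra) list 2. At the inner Ffar2 start sites, beside the H3K27ac region, H3K9ac was found both without and with tetracycline. It covered 395 bp in the Fast (-Tetra) list 1 and 706 bp in the Fast (+Tetra) list 1.

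**Figure D2:**
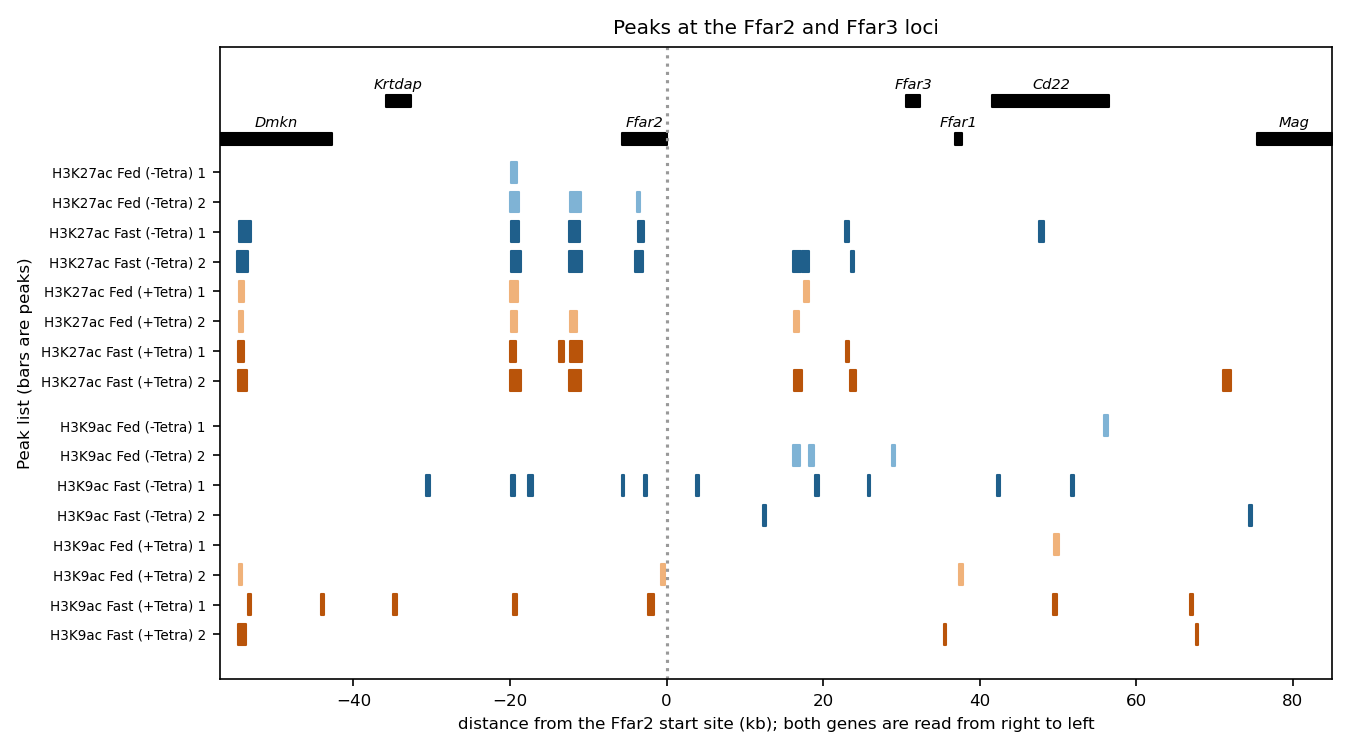
Peaks (bars) of each list at the Ffar2 and Ffar3 loci by distance from the outermost Ffar2 start site (kb), coloured by group, with protein-coding genes in black. H3K27ac peaks lie between the genes and also inside Dmkn, the Ffar2 body and Cd22. The region about 20 kb left of the start is present in all 8 H3K27ac lists. No H3K9ac column repeats across more than a few lists.

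Immune cells also use these receptors, and 1 of 6 markers of such cells followed feeding in the H3K27ac lists. Ptprc (CD45, carried by leukocytes) was covered at its ends by 415, 448, 530 and 852 bp in the 4 Fast lists and by 0 in all 4 Fed lists. Of all genes 0.0959% were marked at an end with H3K27ac in all Fast and no Fed lists. Ptprc had no H3K9ac at its ends in any list. Cd79a, a B-cell marker, followed tetracycline instead. Its ends had 490, 504, 1088 and 725 bp of H3K27ac in the -Tetra lists and 108, 294, 90 and 388 bp in the +Tetra lists, which did not overlap. The share of all genes whose end cover separated in this way was not computed. In H3K27ac cover of the locus Cd79a also separated, as did 1.32% of all genes with -Tetra higher. Itgam was marked in 4 Fast and 2 Fed lists, Cd3e in 6 lists, and Adgre1 in none. The summed cover of the 6 markers was 1.96 to 2.98 kb in Fast and 0.586 to 2.55 kb in Fed lists, which overlapped, and the B-cell gene Cd22, inside both receptor loci, had no H3K27ac at its ends. Enteroendocrine markers covered 0 to 1.72 kb in Fast and 0.487 to 1.64 kb in Fed lists, stromal markers 0 to 1.19 and 0 to 1.05 kb, and tuft markers 0 to 0.223 and 0 kb. Their part in the feeding difference at Ffar2 and Ffar3, and in the region of the Ffar2 body seen only without tetracycline, was not tested. In bulk lists, fewer cells of a type and less acetylation per cell cannot be told apart.

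Ffar4, the long-chain fatty acid receptor (chr19:38097079-38114263), was likewise more covered by H3K27ac in Fast lists. The Fed lists had 1.19 and 0.961 kb without and 0.902 and 1.29 kb with tetracycline, and the Fast lists 3.10 and 4.75 kb without and 3.10 and 1.83 kb with it. No Fed list reached the lowest Fast list, and the means were 3.19 ± 1.20 kb and 1.08 ± 0.182 kb (SD, n = 4 lists each), a difference of 2.11 kb with an exact permutation p of 0.056 and 0.58 adjusted. The share of this cover within 1 kb of the ends of the neighbours Cep55, Rbp4 and Pde6c had a median of 89.4% and ran from 30.6 to 100% over lists. In the 4 Fed lists a region at Cep55 (chr19:38054016-38055541) held all of the cover, with 1185, 961, 902 and 1287 bp. In the Fast lists the same region held 1396, 1457, 1162 and 1438 bp, and its mean difference between Fast and Fed lists was 279.5 bp with overlapping lists. A region 13.1 kb from the gene body and away from other gene ends (chr19:38082715-38083975) had H3K27ac in 3 of 4 Fast lists and no Fed list. The ends of Ffar4 itself were covered by 74 and 865 bp in the Fast (-Tetra) lists and by 0 in the other 6. H3K9ac reached the ends in list 1 of both Fast groups, with 1158 bp without and 760 bp with tetracycline, and in no Fed list. Those lists held the most H3K9ac peaks, 99050 without and 97764 with tetracycline. The best Ffar4 end peaks ranked at the percentiles 46.0 and 30.5 of these lists. Whether the number of peaks explains the marking was not tested. When only the upper 0.5 of each list by score was kept, the Ffar4 difference fell to 0.64 kb and the groups overlapped (exact permutation p = 0.33).

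Gpr35 (chr1:92948052-92986391) showed steady acetylation inside its gene record and almost none at the curated start sites. A broad region about 22.2 kb before the first curated start (chr1:92949084-92952769) had H3K27ac in all 8 lists, covering 2211 to 3622 bp, and H3K9ac in all 8 lists, covering 1579 to 3368 bp. At the curated start sites H3K27ac was found only in the Fast (-Tetra) list 1, with 557 bp, and H3K9ac only in the Fed (+Tetra) list 2, with 64 bp. Within 1 kb of the ends of the record there was no H3K27ac in any list and H3K9ac in 2 lists. It covered 616 bp in Fast (-Tetra) list 1 and 237 bp in Fed (+Tetra) list 1. The broad region begins at 92949084, just beyond the 1 kb window of the record's lower end at 92948052. The count at gene ends therefore missed it. The whole locus had 10.8 to 15.6 kb of H3K27ac in Fed and 12.9 to 16.9 kb in Fast lists, which overlapped. A median of 46.6% of it lay within 1 kb of the ends of neighbouring genes such as Capn10, Rnpepl1 and Dusp28.

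Slc5a8, the sodium-coupled short-chain fatty acid transporter (chr10:88885992-88929515), was marked at its start in some lists of every H3K27ac group. H3K27ac covered 790 and 1179 bp in the Fed (-Tetra) lists, 0 and 631 bp in the Fast (-Tetra) lists, 0 and 1180 bp in the Fed (+Tetra) lists and 610 and 1314 bp in the Fast (+Tetra) lists. List 2 was higher than list 1 in every group, and the groups overlapped. H3K9ac was found there in both Fed (-Tetra) lists, with 818 and 510 bp, and in none of the other 6. Both lists belong to 1 sample, so no second sample checks this.

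Ahr (chr12:35497979-35534989) was the only one of the 10 genes with a peak at a gene end in every list of both marks. A single region at the upper end of the record (chr12:35533559-35535675) carried H3K27ac in all 8 lists. It covered 1620 and 1379 bp in Fed (-Tetra), 1354 and 1881 bp in Fast (-Tetra), 1644 and 1457 bp in Fed (+Tetra) and 1819 and 1507 bp in Fast (+Tetra) lists. The groups overlapped in both contrasts: the difference was 48.2 bp for tetracycline (exact permutation p = 0.72) and 115 bp for feeding (exact permutation p = 0.50). H3K9ac at the same end covered 1374 to 1624 bp in the 8 lists. By the authors' score the best H3K27ac peak at an end of Ahr ranked between the percentiles 70.3 and 99.6 of its list. A region in the body (chr12:35527113-35528150) also had H3K27ac in all 8 lists, and H3K9ac overlapped it in 4.

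Ahrr, the AhR repressor gene (chr13:74211118-74292331), had little acetylation of its own ends in these lists. H3K27ac was found there only in the Fast (+Tetra) list 1, with 554 bp. H3K9ac covered 538 bp in the Fed (-Tetra) list 2, 19 bp in the Fast (-Tetra) list 1 and 885 bp in the Fast (+Tetra) list 2. These lists come from 3 groups and no group had both lists marked. The regions found in all 8 H3K27ac lists at the locus, 3 in number, all lay at the ends of the neighbours Exoc3 and Pdcd6. H3K27ac over the locus gave the largest tetracycline difference of the 10 genes, with 8.64, 8.03, 7.93 and 9.19 kb in the -Tetra lists and 5.25, 6.93, 9.14 and 7.09 kb in the +Tetra lists. The means were 8.45 ± 0.585 kb and 7.10 ± 1.60 kb (SD, n = 4 lists each), a difference of -1.35 kb with overlapping lists (exact permutation p = 0.17, 1 adjusted). The B-cell marker Cd79a was also lower with tetracycline, and its part here was not tested. With only the upper 0.5 of each list by score it was -0.56 kb (exact permutation p = 0.056), with flanks of 25 kb -0.45 kb and with flanks of 100 kb -2.91 kb (exact permutation p = 0.50 for both).

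Cyp1a1, the classical AhR-induced enzyme (gene record chr9:57687928-57703824), had H3K27ac next to its start site in every list. The start site at position 57697613 lies inside the record, so the count at gene ends missed this region (chr9:57695401-57697836) and found H3K27ac in only 1 list (732 bp, Fed (+Tetra) list 2) and H3K9ac in 1 (833 bp, Fast (+Tetra) list 2). Within 1 kb of the start, H3K27ac covered 759 and 1168 bp in Fed (-Tetra), 906 and 522 bp in Fast (-Tetra), 680 and 1886 bp in Fed (+Tetra) and 354 and 474 bp in Fast (+Tetra) lists. The whole region was 1379 and 1965 bp wide in the Fed (-Tetra) lists, 1124 and 1253 bp in the Fast (-Tetra) lists, 1449 and 2436 bp in the Fed (+Tetra) lists and 868 and 954 bp in the Fast (+Tetra) lists. It was wider in every Fed list than in any Fast list, whereas the mean difference with tetracycline was -3.5 bp (exact permutation p = 1).

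The mean width of the Cyp1a1 start region was 1050 ± 172 bp in Fast and 1807 ± 494 bp in Fed lists (SD, n = 4 lists each), a difference of -757.5 bp. The exact permutation p was 0.056, the smallest possible, and 0.63 after Benjamini-Hochberg adjustment over the 16401 H3K27ac regions present in all 8 lists. This region was singled out after its values were seen. Of the 24 regions at the 10 loci that had H3K27ac in all 8 lists, it was the only one whose Fed and Fast widths did not overlap. Over the genome, Fed lists were wider without overlap at 0.494% of such regions and Fast lists at 5.04%. By tetracycline 0 of the 24 separated, beside 0.433% (+Tetra wider) and 0.793% (-Tetra wider). Of the 7 regions at these loci with H3K9ac in all 8 lists, 0 separated, beside 1.04% and 0.576% by tetracycline and 2.15% (Fast wider) and 1.06% (Fed wider) by feeding. Without list 2 of each group the difference was -418 bp, without list 1 -1097 bp, and with the upper 0.5 of each list by score -1309 bp. H3K9ac lay over the region in 4 lists, covering 602 bp in Fed (-Tetra) list 1, 712 and 2060 bp in the Fed (+Tetra) lists and 979 bp in Fast (+Tetra) list 1. Fed and Fast lists therefore overlapped for H3K9ac.

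**Figure D3:**
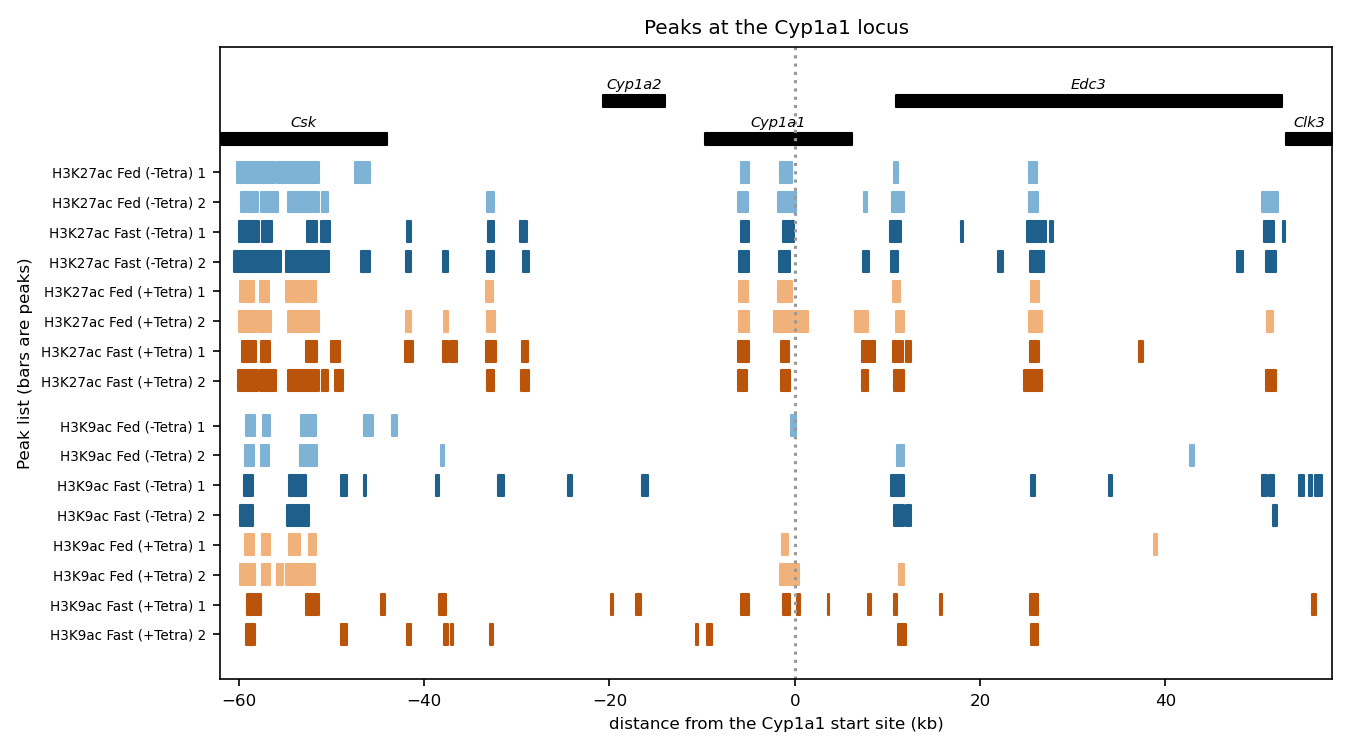
Peaks (bars) of each list at the Cyp1a1 locus by distance from its start site (kb), coloured by group, with protein-coding genes in black. The H3K27ac peak just left of the start is present in all 8 lists and narrower in the 4 Fast lists (868 to 1253 bp) than in the 4 Fed lists (1379 to 2436 bp); the broad blocks at the left edge lie in Csk.

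Elsewhere at the Cyp1a1 locus, 1 of 24 H3K27ac regions was called in the 4 Fast lists and no Fed list (chr9:57667954-57668897, 19.03 kb from the gene body). It covered 779 and 605 bp in the Fast (-Tetra) and 682 and 804 bp in the Fast (+Tetra) lists. An H3K9ac region (chr9:57640009-57640957), 47.0 kb from the body, showed the opposite pattern, with 730 and 831 bp in the Fed (-Tetra), 865 and 867 bp in the Fed (+Tetra) and 0 in all 4 Fast lists. When every list was reduced to an equal number of top-scoring peaks, this H3K9ac region no longer separated Fed from Fast. These were the only such regions among 110 H3K27ac and 217 H3K9ac regions at the 10 loci. Over the genome 0.400% of H3K27ac regions were found in all Fast and no Fed lists and 0.0837% in all Fed and no Fast lists, and for H3K9ac the shares were 0.0189% and 0.0145%. For tetracycline there was none at the 10 loci, beside 0.0240% (+Tetra only) and 0.0882% (-Tetra only) of all H3K27ac regions and 0.0189% and 0.00879% of all H3K9ac regions.

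Cyp1b1 (chr17:79706940-79715061), which encodes a related AhR-induced enzyme, was nearly bare. H3K27ac was found at the locus in 2 lists, with 0.510 kb in the Fed (-Tetra) list 2 and 0.971 kb in the Fast (+Tetra) list 1. H3K9ac formed 13 regions, each in a single list, and reached a gene end only in the Fast (-Tetra) list 1, with 574 bp. No region repeated between lists for either mark. With an unknown depth, no peak in a list does not show that the mark was absent.

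Tiparp (chr3:65528447-65555518), the AhR-induced ADP-ribosyltransferase, was broadly acetylated at its start in nearly every list. The region there (chr3:65527211-65530276) had H3K27ac over 2233 and 2830 bp in Fed (-Tetra), 2747 and 2496 bp in Fast (-Tetra), 2327 and 2706 bp in Fed (+Tetra) and 2589 and 2271 bp in Fast (+Tetra) lists. Neither contrast separated the lists, with differences of -103 bp for tetracycline (exact permutation p = 0.56) and 1.8 bp for feeding (exact permutation p = 1). Further H3K27ac regions in all 8 lists lay in the body (chr3:65540851-65542299) and upstream, 11.9 and 9.67 kb from the gene (chr3:65515363-65516592 and chr3:65517133-65518774). H3K9ac overlapped these regions in 3, 2 and 3 lists. H3K9ac at the start was found in 7 lists, covering 1126 to 2532 bp, and the Fast (+Tetra) list 2 had no H3K9ac peak anywhere in the Tiparp locus. That list has the highest share of 200 bp peaks, and whether the 2 facts are linked was not tested. No other protein-coding gene lies in the Tiparp or the Ahr locus.

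**Figure D4:**
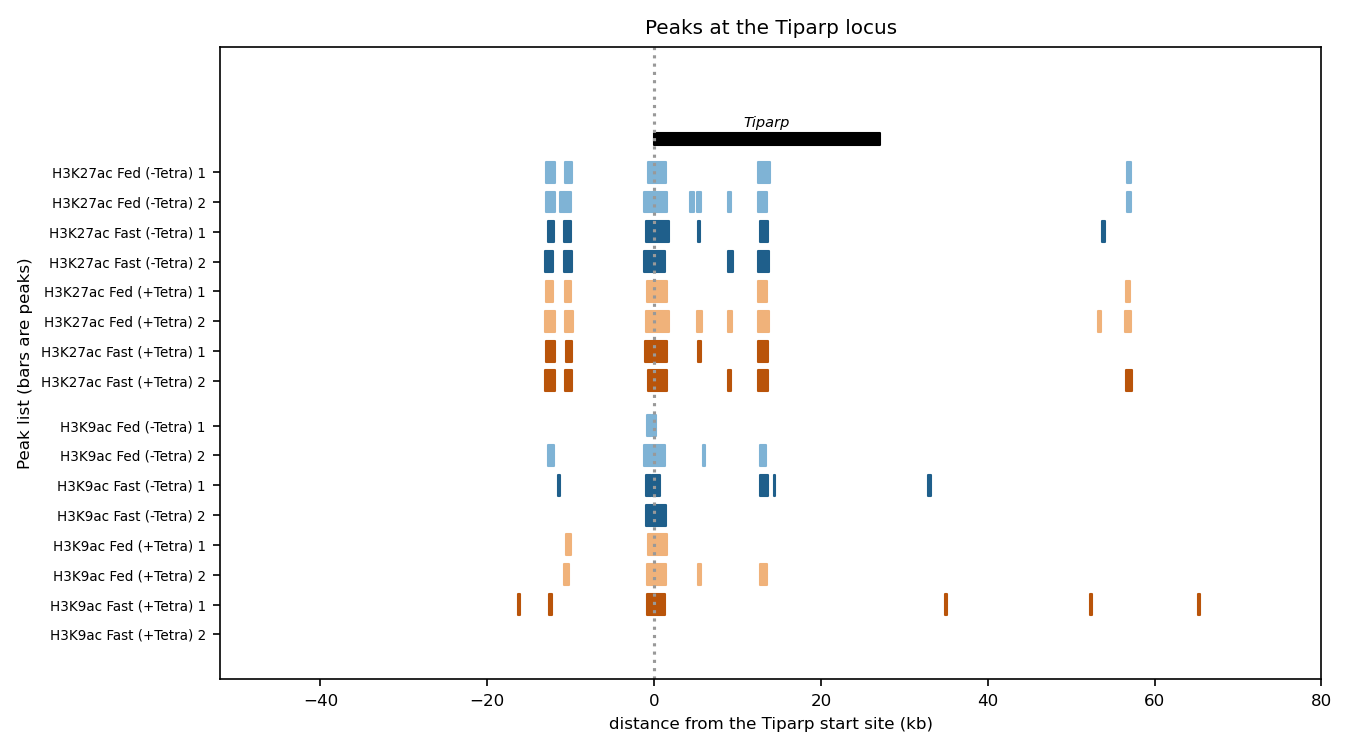
Peaks (bars) of each list at the Tiparp locus by distance from its start site (kb), coloured by group, with the gene in black. The 4 H3K27ac columns at the start, in the body and upstream repeat in all 8 lists, while H3K9ac at the start appears in 7 lists and no H3K9ac peak appears in the bottom list.

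Over the 10 loci, the covered length of every gene overlapped between the tetracycline states. For H3K27ac, 0 of the 10 genes separated +Tetra from -Tetra lists, and over 20152 genes with a peak 0.139% did so with +Tetra higher and 1.32% with -Tetra higher. The differences ran from -1.35 kb at Ahrr to 0.16 kb at Slc5a8, were above 0 in 2 of 10 genes and had a median of -0.55 kb. The median over all genes was -0.31 kb, with 27.5% above 0. For H3K9ac, 0 of the 10 separated, beside 0.243% (+Tetra higher) and 0.145% (-Tetra higher) of 21400 genes, and 6 of 10 differences were above 0, beside 58.1% over all genes, with medians of 0.030 kb and 0.11 kb. No gene in these tests had an unadjusted exact permutation p under 0.05, because 36 arrangements cannot give one.

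Feeding separated the H3K27ac lists at 3 of the 10 loci, Ffar2, Ffar3 and Ffar4, all with Fast higher, where 5.75% of all genes did so with Fast higher and 0.139% with Fed higher. Since Ffar2 and Ffar3 share most of their peaks, these are not 3 separate observations. The difference was above 0 in 8 of 10 genes with a median of 1.09 kb, beside 79.9% and 0.54 kb over all genes. As a percent of each list's total covered length, Ffar2, Ffar3 and Ffar4 were still higher in all Fast lists, and Gpr35 and Tiparp were higher in all Fed lists. On that scale 3.63% of all genes separated with Fast higher and 5.41% with Fed higher. For H3K9ac, 0 of 10 genes separated, beside 3.56% (Fast higher) and 0.257% (Fed higher) of all genes, and the median difference was 0.75 kb against 0.50 kb.

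**Figure D5:**
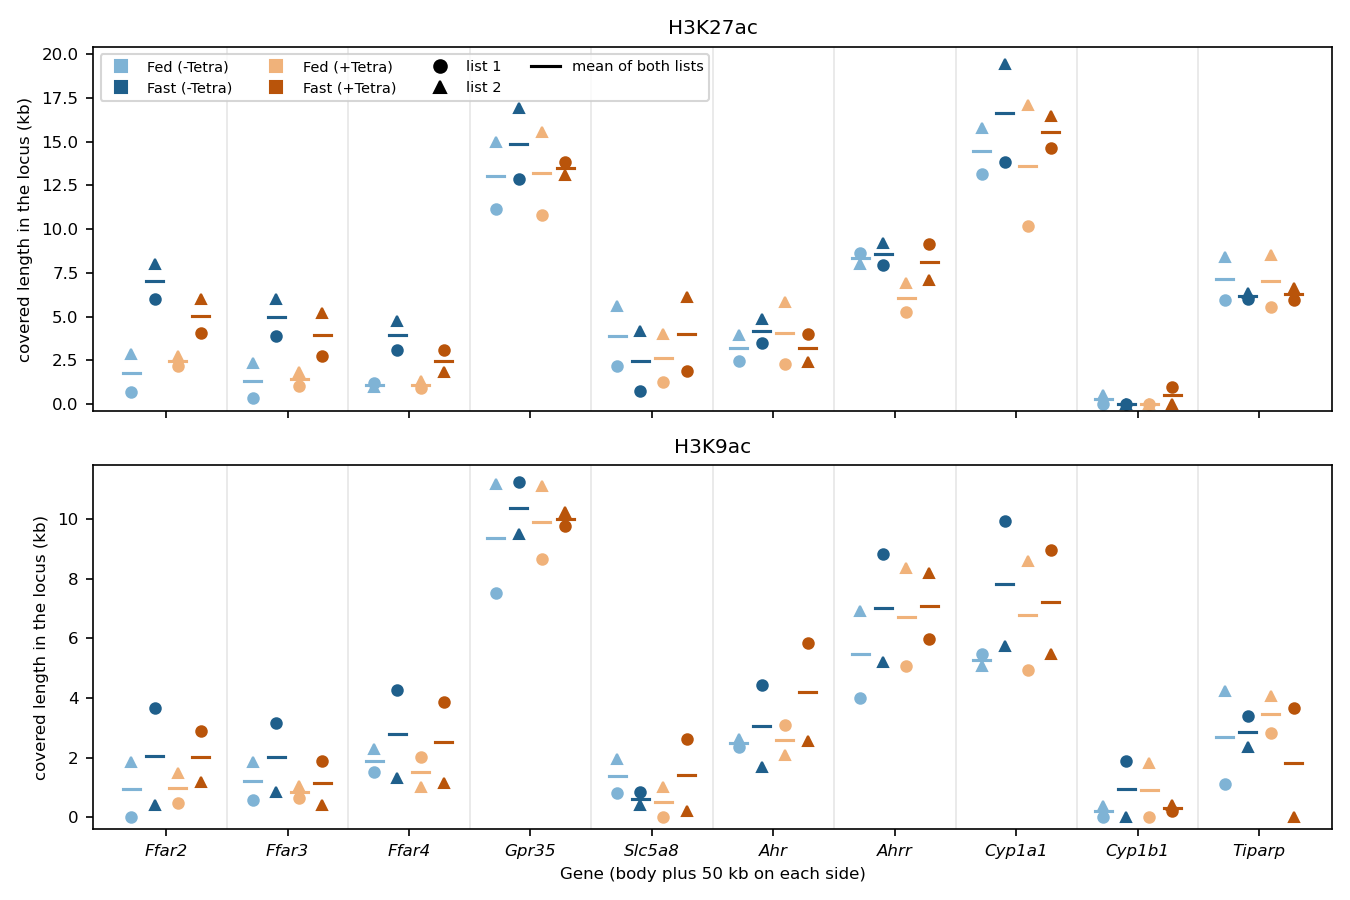
Length covered by peaks (kb) in each locus, one point per list (circles list 1, triangles list 2), by group, with a line at the mean of both lists; top H3K27ac, bottom H3K9ac. At Ffar2, Ffar3 and Ffar4 the Fast points of H3K27ac lie above all Fed points, and elsewhere the groups overlap.

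Recurring regions at the loci were counted beside those of the genome. Of the 110 H3K27ac regions, 21.8% recurred in all 8 lists and 41.8% were seen in 1 list, beside 14.6% and 53.1% over the genome. Of the 217 H3K9ac regions the shares were 3.23% and 77.9%, beside 1.52% and 84.4%. Neighbouring genes count in these shares, since 10 of the 24 regions with H3K27ac in all 8 lists lay at the ends of other genes. Of the 14 that did not, H3K9ac was present in all 8 lists at 3: the end of Ahr, the body of Gpr35 and the flank of Cyp1a1 in Csk. The share was not tested, as regions are not replicates.

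Other genes of the same pathways were taken from lists chosen by function, with earlier results of these data known. Among 14 further metabolite receptors and transporters, H3K27ac marked a gene end in all 8 lists at Slc16a1, a monocarboxylate transporter, and Slc5a12, a lactate transporter, and in no list at 7 genes, beside 33.6% and 39.4% of all genes. Hcar2, the receptor for butyrate and beta-hydroxybutyrate, was marked in all 4 Fast lists and no Fed list, as were 0.0959% of all genes. In covered H3K27ac length 3 of the 14 loci (Hcar1, Hcar2 and Gpr132) separated with Fast higher, beside 5.75% of all genes. Hcar1 and Hcar2 are both on chromosome 5, and whether their loci share peaks was not examined. These may therefore not be 3 separate observations. Ffar1, between Ffar3 and Cd22, differed by 2.34 kb with overlapping lists. Among 12 further AhR partners and targets, 8 had H3K27ac in all 8 lists, beside 33.6% of all genes, including Arnt, the partner of AhR, the chaperone genes Hsp90ab1 and Ptges3, and the target Nqo1. Cyp1a2, beside Cyp1a1, had none, and Aldh3a1 was the only locus of the 12 that separated by feeding for H3K27ac, with Fast higher, beside 5.75% of all genes. No locus of either list separated by tetracycline for H3K27ac or H3K9ac.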

How the data were processed

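H3K27ac and H3K9ac peaks came from 16 deposited lists, in which the authors gave for each peak a position and a score of no stated unit, which served only for ranking inside a list. Per the submitters' processing notes the build was mm10 and FastQC, Bowtie and SAMtools were used. The MACS version, its cutoff and the use of IgG libraries are not given in the sources used here. List numbers 1 and 2 stand only in the names of the lists.

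Genes came from RefSeq (GRCm38.p6), chromosomes 1 to 19, X and Y only. Covered length was the number of bases under peaks. Overlapping peaks (at least 1 bp) of a mark were merged into regions. Labels were permuted exactly within strata of the other factor, with Benjamini-Hochberg adjustment over all genes or regions. The counting was tested on simulated data. All 10 genes were named by rule, and further genes by function. Some genes of these lists are counted but not reported by name here. The genes and lists were chosen with earlier results of these data known. The widths of the Cyp1a1 region and the counts of loci without overlap under the alternatives were added after seeing the data. Lists of the same number correlated over genes after removing group means for H3K27ac (r 0.40 to 0.69), and for H3K9ac from -0.061 to 0.57. Software was scipy 1.17.1, pandas 2.3.3, numpy 2.4.6 and, for plots, matplotlib 3.10.9, under Python 3.11.15.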

Additional observations from a re-analysis of the deposited data

How the results depend on the processing

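Alternatives were the top-scoring 0.5 of each list, an equal number of top peaks per list, peaks of at least 500 bp, a window of 2.5 kb, start sites only, flanks of 25 and 100 kb, covered length as a percent of the list, an overlap of 0.5 of the shorter peak, and the replicate block. Over 17 results and 97 values obtained with all lists, 7 differences changed sign and 2 counts moved by more than 1.5 times. Many of the others are counts of 0, which have no direction, and no test here could pass its threshold. The H3K9ac feeding difference in marked genes was 0 with the 2.5 kb window. The feeding difference in marked genes became -0.25 (upper 0.5) and -0.5 (equal number) for H3K27ac, and -0.75 (equal number) and -0.25 (start sites only) for H3K9ac. The tetracycline difference became -0.75 with the 2.5 kb window and -0.75 with start sites only for H3K27ac, and 0.25 with equal numbers for H3K9ac. With equal numbers, 0 H3K9ac regions separated by feeding. As a percent of the list, 5 loci separated by feeding for H3K27ac. The cause was not tested.

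Leaving out the lists of 1 number compares 2 lists with 2, which fewer lists make easier to separate. Shares over all genes and all regions were not computed for this setting. The counts of loci and regions given next therefore have no baseline. Loci without overlap were then 1 to 1 (tetracycline) and 4 to 6 (feeding) for H3K27ac, while H3K9ac gave 0 to 3 and 5 to 10. Regions in all lists of 1 state only numbered 1 to 4 (tetracycline) and 4 to 8 (feeding) with H3K27ac, 3 to 4 and 4 to 9 with H3K9ac. The H3K9ac feeding difference in marked genes ran from -1 to 2. In the replicate block, which paired lists of the same number, the Ffar2 difference stayed 3.91 kb, higher in 4 of 4 pairs, with an exact sign-flip p of 0.125, the smallest possible; it changed no call. The labels do not say that a number marks a shared mouse. For H3K9ac, lists of the same number correlated between tetracycline states (r 0.57 in Fed and 0.25 in Fast). Between Fed and Fast they hardly did (r 0.092 without and -0.061 with tetracycline). Depth was unknown, so no limit on undetected acetylation can be given.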

Other observations

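Some genes elsewhere in the genome had the same pattern of marked and unmarked lists at their ends as a member of the group. Likeness was the number of the 16 lists in the same state, with ties ordered by the mean difference in covered bases. Genes whose loci overlapped that of the member were left out. Whether matched genes lie next to each other and share peaks was not examined. Tiparp, marked in 15 lists, matched Rfx7 and Ddx54 in all 16 lists, as it did 588 genes in all. Ffar4, marked in 4 lists, matched P2rx6 and Lrrc74b in all 16, among 4 such genes. Slc5a8, marked in 8 lists, had no exact match, the nearest being Fam111a with 15 lists. Cyp1a1, marked at a gene end in 2 lists, matched Cpe and H2-Q10 among 4 genes, and Cyp1b1, also marked in 2, matched Map3k15 and Zfp454 among 31.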
